A study of Mus musculus with 12 samples.

Results

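Interferon-stimulated genes are the genes that cells switch on when interferon reaches them. Here 44 of them were taken by symbol from a table of 25124 genes measured in mouse brain after stroke. All 44 were in the table and all passed the filter on low counts. They were described in 2 classes. One holds 10 GTPases of the interferon-gamma style, the guanylate-binding proteins and the immunity-related GTPases. The other holds the remaining 34 members, called type I style here, which are the transcription factors, RNA and DNA sensors and antiviral effectors. It is defined as all members but the GTPases, so it includes Irf1, a factor tied to interferon-gamma. Cells of many kinds can express both classes, and most members answer to both kinds of interferon, so the names are those of typical membership only.

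The series asks what dickkopf-1 (DKK1), a secreted inhibitor of Wnt signalling, does after ischemic stroke, modelled by occlusion of the middle cerebral artery (MCAo). The DKK1 mice carried a doxycycline-dependent activator with EGFP at the ROSA26 locus (rtTA,EGFP), a tetO-Dkk1 transgene at Hprt and a TCF/Lef1-lacZ reporter of Wnt activity. Wild-type mice were C57BL6/J and carried none of these alleles. Mice of both genotypes had the stroke and received doxycycline at 200 mg/kg, DKK1 was induced from day 3, and tissue was taken on day 28. The 4 groups were wild-type contralateral, wild-type ipsilateral, DKK1 contralateral and DKK1 ipsilateral, with 3 libraries each. Contralateral is the intact and ipsilateral the lesioned hemisphere. No group of DKK1 mice without doxycycline and no mice without stroke were analysed here, so the alleles and the induced protein cannot be told apart. The labels give neither the age of the mice nor the cell type that expressed the transgene. Whether each library is a separate animal is not stated either, and p-values measure only how these libraries spread, which may be technical.

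In the interferon pathway, type I interferons bind the receptor pair Ifnar1 and Ifnar2, and Tyk2 and Jak1 then activate STAT proteins, among them Stat2. With Irf9 these form a complex that binds the interferon-stimulated response element (ISRE). Interferon-gamma binds Ifngr1 and Ifngr2, and STAT dimers then bind the gamma-activated site (GAS). Irf1 and Irf7 are themselves induced and extend the response. In brain, microglia, infiltrating leukocytes, endothelial cells and astrocytes can all mount it.

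Promoter sequence was examined first, because these elements are what typically drives the 2 classes. Windows of 300 bases, from 250 before to 50 after the transcript start, came from RefSeq (GRCm38.p6, mm10), and 32 members had one at the start of the counted transcript. The ISRE was searched as GAAA NN GAAA or, on the other strand, TTTC NN TTTC, with N any base, and the GAS as TTCNNNGAA, which reads the same on both strands. An ISRE match was present in 18 of 32 member windows (56.3%), against 3.44% of all 32851 windows in the table. A GAS match was present in 11 of 32 (34.4%), against 8.30% of all windows, and both were present in 7, against 0.454% of all windows. All 8 GTPase windows held an ISRE match and 5 of 8 also held a GAS match. Among type I style genes 10 of 24 windows held an ISRE match, 6 of 24 a GAS match and 2 of 24 both. Matches are letters in a window, not shown to be bound in these data. Iigp1, Ifi47, Mx1, Mx2, Parp9, Parp14, Rtp4, Ifi27l2a, Usp18, Dhx58, Zbp1 and Oas2 had no window at the counted start.

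The 200 bases before the start are shown for 11 members, 5′ to 3′ on the gene's strand, in mm10 coordinates, with ISRE and GAS matches in capitals. The first 3 are GTPase genes in which a GAS match and an ISRE match lie at the same spacing. In Igtp, Irgm2 and Tgtp1 the GAS match began 11 bases before the ISRE match. That arrangement occurred in 5 of 32851 windows (0.0152%), those of these 3 members, Tgtp2 and Gm12185. The spacing was picked as the commonest one among the member windows themselves, so its rarity elsewhere is a description and not a test. Igtp and Irgm2, which are neighbours, shared a run of 55 identical bases within the 250 bases before the start, Irgm2 and Tgtp1 shared 20 and Igtp and Tgtp1 shared 14.
Igtp (chr11:58199356-58199555, plus strand): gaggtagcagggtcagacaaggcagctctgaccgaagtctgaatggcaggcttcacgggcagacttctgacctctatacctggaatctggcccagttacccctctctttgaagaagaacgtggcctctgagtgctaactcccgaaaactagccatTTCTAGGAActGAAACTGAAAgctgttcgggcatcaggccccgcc
Irgm2 (chr11:58214777-58214976, plus strand): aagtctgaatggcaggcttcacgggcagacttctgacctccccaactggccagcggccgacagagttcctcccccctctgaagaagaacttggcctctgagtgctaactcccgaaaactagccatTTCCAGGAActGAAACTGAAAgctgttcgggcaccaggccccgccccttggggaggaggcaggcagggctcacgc
Tgtp1 (chr11:48992247-48992446, minus strand): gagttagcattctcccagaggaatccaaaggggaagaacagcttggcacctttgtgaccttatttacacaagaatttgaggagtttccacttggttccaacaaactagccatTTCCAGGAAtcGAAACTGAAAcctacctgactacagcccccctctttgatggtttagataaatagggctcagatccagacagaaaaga

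Irgm1 and Gbp2 are shown as GTPase genes with an ISRE match and no GAS match, and Irf1 as a transcription factor gene with a GAS match and no ISRE match.
Irgm1 (chr11:48871421-48871620, minus strand): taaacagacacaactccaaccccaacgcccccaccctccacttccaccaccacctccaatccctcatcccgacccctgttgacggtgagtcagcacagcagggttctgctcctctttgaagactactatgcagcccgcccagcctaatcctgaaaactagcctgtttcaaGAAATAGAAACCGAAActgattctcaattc
Gbp2 (chr3:142620463-142620662, plus strand): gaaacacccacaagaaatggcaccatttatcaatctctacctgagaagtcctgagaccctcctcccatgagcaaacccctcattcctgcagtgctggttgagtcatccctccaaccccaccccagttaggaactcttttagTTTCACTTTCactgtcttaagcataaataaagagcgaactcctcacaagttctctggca
Irf1 (chr11:53769814-53770013, plus strand): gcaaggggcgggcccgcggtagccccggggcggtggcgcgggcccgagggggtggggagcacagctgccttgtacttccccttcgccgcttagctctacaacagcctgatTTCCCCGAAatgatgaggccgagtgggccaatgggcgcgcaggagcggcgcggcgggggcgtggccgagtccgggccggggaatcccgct

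Isg15, Ifit3 and Oas1a represent the type I style class, with 3, 2 and 2 ISRE matches. The matches of Isg15 overlap each other, those of Oas1a do too, and those of Ifit3 stand apart.
Isg15 (chr4:156200819-156201018, minus strand): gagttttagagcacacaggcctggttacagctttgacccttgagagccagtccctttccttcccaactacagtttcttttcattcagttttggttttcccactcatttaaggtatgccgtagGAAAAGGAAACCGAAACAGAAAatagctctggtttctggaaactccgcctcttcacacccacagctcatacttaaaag
Ifit3 (chr19:34583329-34583528, plus strand): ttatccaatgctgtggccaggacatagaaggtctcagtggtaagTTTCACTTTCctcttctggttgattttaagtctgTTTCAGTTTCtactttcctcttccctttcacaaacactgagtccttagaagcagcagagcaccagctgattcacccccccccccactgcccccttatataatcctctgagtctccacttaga
Oas1a (chr5:120907526-120907725, minus strand): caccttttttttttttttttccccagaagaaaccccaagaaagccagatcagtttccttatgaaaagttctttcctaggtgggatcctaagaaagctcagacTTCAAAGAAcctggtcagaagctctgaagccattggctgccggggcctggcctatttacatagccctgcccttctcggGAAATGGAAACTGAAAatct

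Rsad2 and Cmpk2 are neighbours on chromosome 12 that are transcribed away from each other, of which Rsad2 rose in the lesion of both genotypes and Cmpk2 was not called in either. The window of Rsad2 held 1 ISRE match and that of Cmpk2 held neither motif.
Rsad2 (chr12:26456453-26456652, minus strand): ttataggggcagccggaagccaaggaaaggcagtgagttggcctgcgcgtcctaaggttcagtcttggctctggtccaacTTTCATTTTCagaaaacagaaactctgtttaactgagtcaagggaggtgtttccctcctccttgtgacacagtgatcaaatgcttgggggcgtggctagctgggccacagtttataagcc
Cmpk2 (chr12:26469015-26469214, plus strand): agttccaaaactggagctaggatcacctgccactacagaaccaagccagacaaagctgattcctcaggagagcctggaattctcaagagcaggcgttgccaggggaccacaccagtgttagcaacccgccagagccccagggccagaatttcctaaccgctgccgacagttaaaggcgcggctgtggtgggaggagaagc

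**Figure D1:**
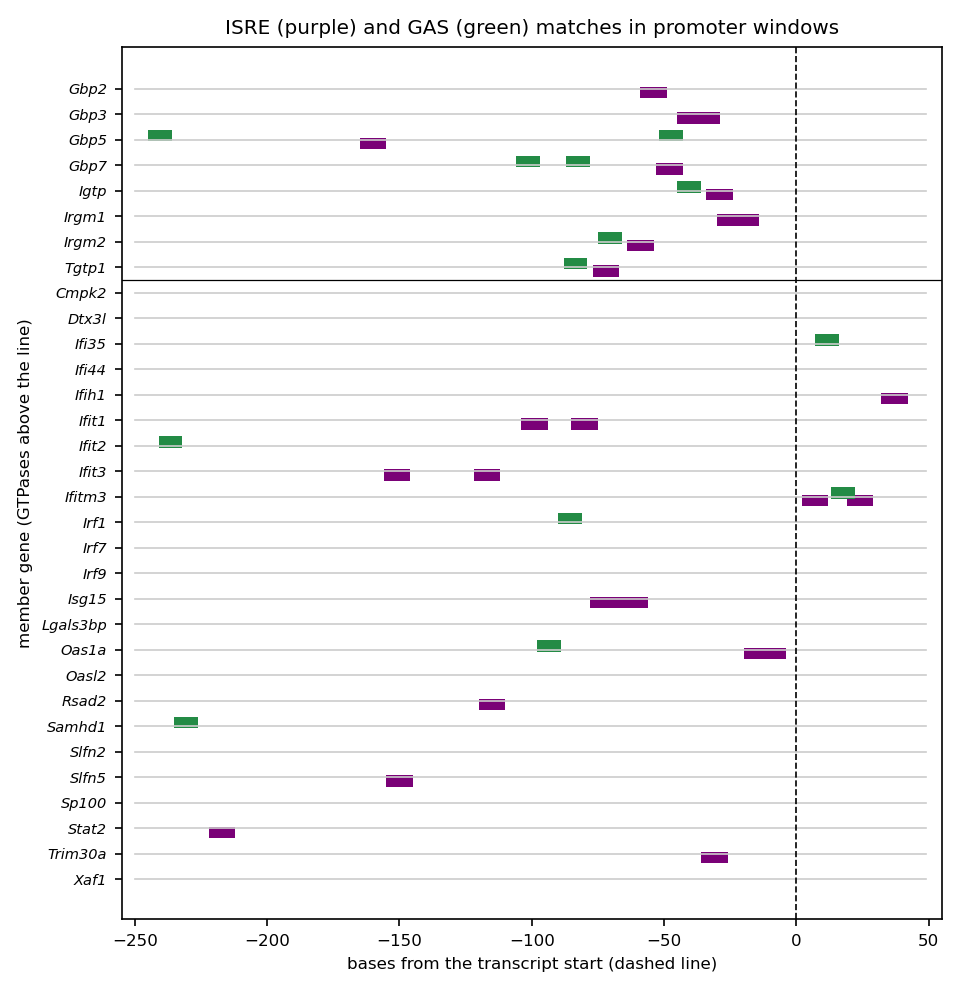
Positions of ISRE matches (purple) and GAS matches (green) in the promoter windows of 32 members, with the distance in bases from the transcript start on the horizontal axis and the GTPase genes above the line. Each of the 8 GTPase rows has a purple mark, and Igtp, Irgm2 and Tgtp1 have a green and a purple mark side by side.

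The members lie on 14 chromosomes, and 27 of them sit in 11 groups of neighbours within 1 Mb of each other. Gbp5, Gbp7, Gbp3 and Gbp2 follow each other on chromosome 3, from 142496934 to 142638008. Irgm1, Tgtp1 and Ifi47 lie on chromosome 11 between 48865245 and 49096987, and Igtp and Irgm2 on the same chromosome between 58199556 and 58222783. Ifit2, Ifit3 and Ifit1 share a stretch of chromosome 19 (34550694 to 34650009). All members are protein-coding, and counts are of a spliced transcript. Names of the deposited count columns carry the word flip, except that of wild-type ipsilateral 1. The TPM column of that library does carry it, and its TPM kept a constant ratio to its counts within 0.0101% over 6595 genes. Whether flip refers to strand is not explained, so the use of strand in counting is not given in the sources used here. Counts are therefore uncertain where genes overlap on opposite strands, which holds for Parp9 and Dtx3l over 558 bases, Slfn5 and Slfn5os over 8580 and Gbp2 and Mir6381 over 87. Stat2 overlaps Apof on the same strand over 753 bases. Members with near-identical copies, such as Ifit3, Tgtp1, Ifi27l2a, Oas1a, Trim30a and the guanylate-binding proteins, can also exchange reads with those copies.

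Libraries held 21209920 to 26911840 counts and 19557 to 20272 detected genes. Dkk1 had 0 counts in the 6 wild-type libraries and 4 to 44 in the 6 DKK1 libraries, and Hprt, the locus of the transgene, was at 67.5 to 79.7 CPM in wild-type and 12.1 to 17.5 CPM in DKK1 libraries, both as labelled. Neuron markers summed to 2255 to 3581 CPM and astrocyte markers to 2172 to 2940 CPM in every library, so the labelled tissue carried its defining markers. CPM are counts scaled to a fixed library total after TMM scaling, and CPM per kilobase divides them by transcript length. Fold changes are on the log2 scale ± standard error (SE) of the edgeR fit, with 3 libraries in each group, and each adjusted p is edgeR's over 17612 genes tested unless another tool is named.

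The wild-type libraries numbered 1 stood apart for these genes, and this bears on each result that uses them. Wild-type ipsilateral 1 lay above both other wild-type ipsilateral libraries in 42 of 44 members, against 44.1% of all genes tested. It lay above DKK1 ipsilateral 1 in 34 of 44, against 47.1% of all genes. Wild-type contralateral 1 was the highest of the 6 contralateral libraries in 33 of 44 members, against 22.0% of all genes, and in 10 of 10 GTPases. For Zbp1 it was 11.96 times the mean of wild-type contralateral 2 and 3, for Mx1 5.62 times, for Iigp1 4.34 times and for Ifi47 3.21 times. Values without these libraries are given beside the results.

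**Figure D2:**
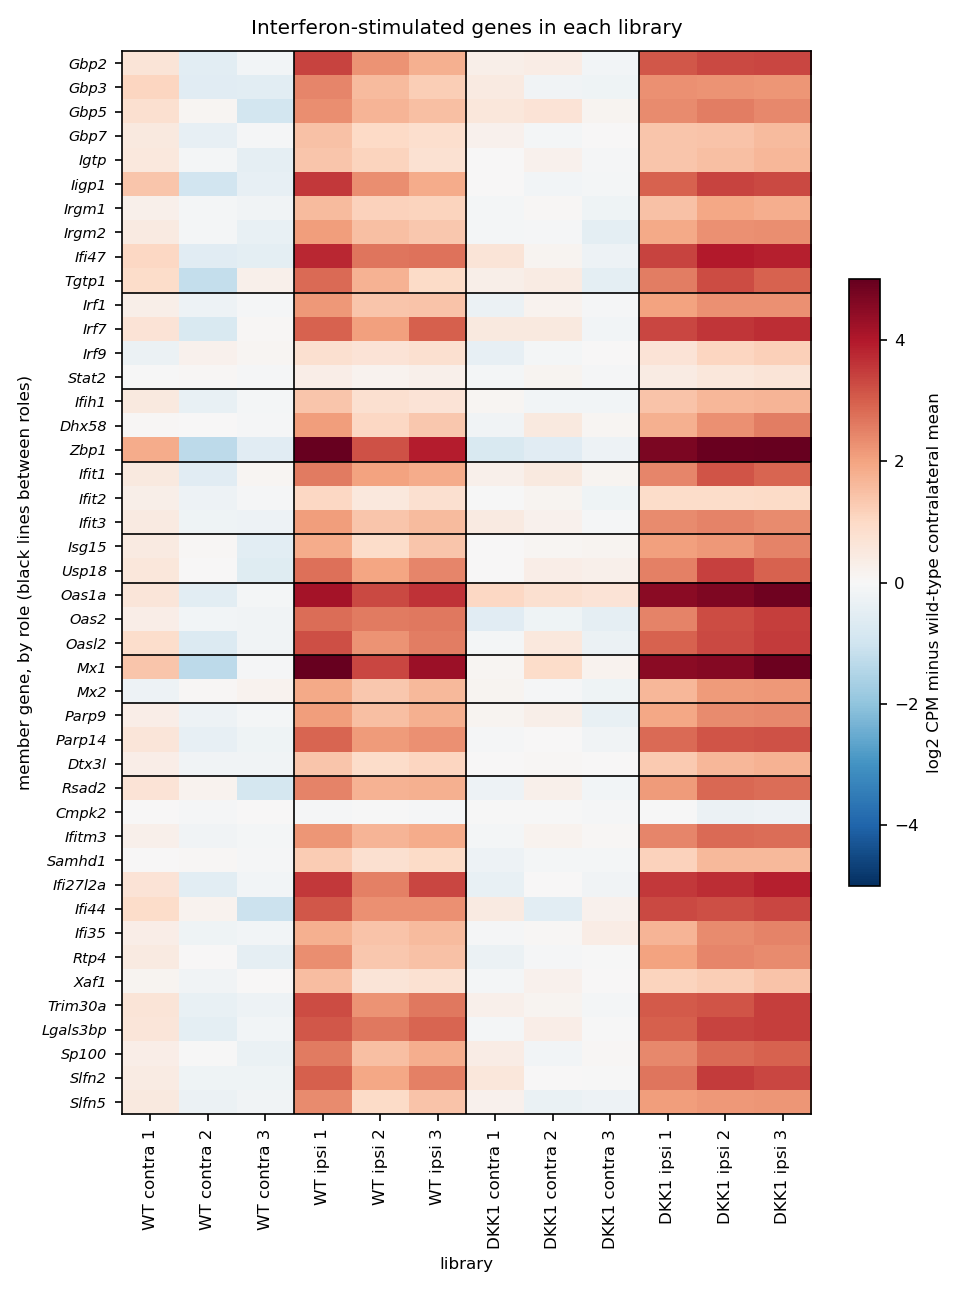
Log2 CPM of each of the 44 members in each of the 12 libraries, relative to the wild-type contralateral mean, with genes grouped by role. Every row but Cmpk2 is redder in the ipsilateral than in the contralateral libraries, faintly so for Stat2, and among contralateral libraries wild-type contralateral 1 is the reddest.

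In the lesioned hemisphere of wild-type mice 43 of 44 members rose, where 21.2% of all genes tested rose, and none fell. In DKK1 mice 43 of 44 rose as well, where 27.5% of all genes rose, and none fell. The exception in both genotypes was Cmpk2. The median log2 change over the 44 members was 1.78 in wild type and 2.42 in DKK1, where the median over all genes was 0.01 in each. All 10 GTPases rose in both genotypes, with medians of 1.70 and 2.32, and 33 of 34 type I style genes rose, with medians of 1.87 and 2.52. In 43 of 44 members every ipsilateral library lay above every contralateral library, in wild type (26.5% of all genes) and in DKK1 (32.1% of all genes). Without wild-type ipsilateral 1, 40 members rose in wild type with a median of 1.53. Without wild-type contralateral 1 the count was 43 and the median 2.15, and with both left out it was 42 and 1.84. The share of all genes that rose is not given for these settings, so these counts have no background beside them. In whole tissue, fewer cells of a type and less RNA per cell cannot be told apart, and the same holds for more of either.

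**Figure D3:**
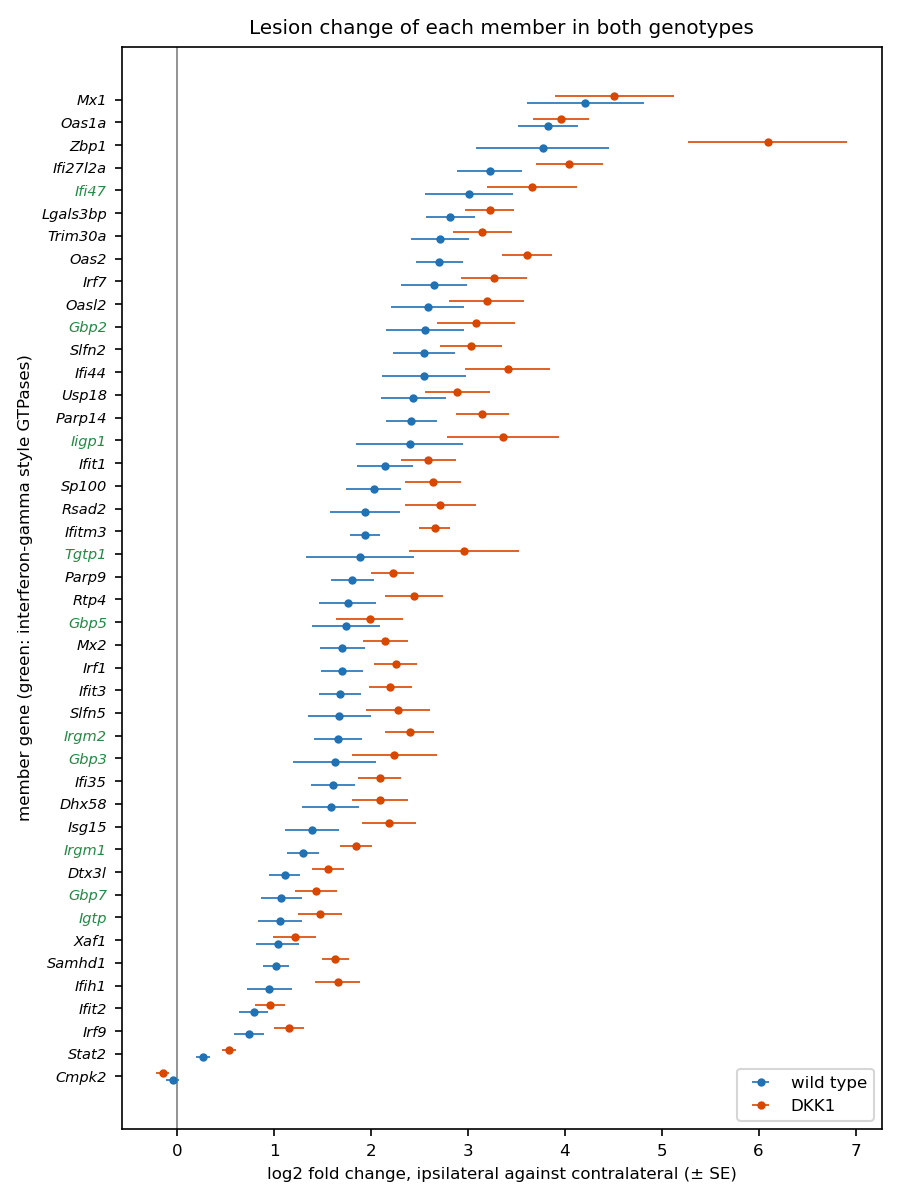
Log2 fold change of each member between the lesioned and intact hemisphere, in wild-type (blue) and DKK1 (orange) mice, as points with standard errors, with GTPase names in green. Cmpk2 lies near 0 and the other 43 lie to its right, up to 4.21 for Mx1 in wild type and 6.09 for Zbp1 in DKK1.

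The inputs of the pathway came from lists of other genes. The interferons themselves were at or near 0. Of 9 interferon genes in the table none passed the filter, and Ifna1, Ifna2, Ifna4, Ifnb1, Ifnl2 and Ifnl3 had 0 counts in all 12 libraries, which allows up to 0.112 to 0.147 CPM per library (3 counts, counting error only). Ifng, the gene of interferon-gamma, had 0 counts in all 6 contralateral libraries, 4, 2 and 2 counts in the wild-type ipsilateral and 2, 3 and 0 in the DKK1 ipsilateral libraries. Receptors rose in 5 of 6 cases in wild type and 6 of 6 in DKK1, with Ifnlr1 the one not called in wild type. Ifngr1 went from 19.3 ± 1.86 to 53.8 ± 7.59 CPM (SD, n = 3) in wild type and from 19.8 ± 0.52 to 69.4 ± 7.85 CPM in DKK1. Ifnar2 rose by 1.24 ± 0.15 and 1.68 ± 0.15 on the log2 scale.

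Of the signalling genes, Stat3 and Tyk2 rose in both genotypes, and the kinases Jak1 and Jak2 were not called. Among 7 regulators outside the member list 6 rose in wild type and 7 in DKK1, with Irf2 the one not called. Irf8, a factor of microglia and macrophages, went from 9.48 ± 3.40 to 64.0 ± 24.3 CPM (SD, n = 3) in wild type and from 7.65 ± 0.54 to 93.0 ± 13.0 CPM in DKK1. Of 10 tested sensors and adaptors outside the member list 9 rose in each genotype, and the kinase Tbk1 did not (−0.07 ± 0.06 and 0.00 ± 0.06). Of 13 further interferon-gamma targets 11 rose in wild type and 13 in DKK1. Among them the chemokine Cxcl10 rose by 4.29 ± 0.58 and 3.80 ± 0.56.

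Among the members, all 4 transcription factor genes rose in both genotypes. Stat2 was the highest of them on the intact side in wild type, at 10.7 ± 0.40 CPM per kilobase (SD, n = 3), and it changed least. Its levels were 47.4, 49.6 and 46.1 CPM in wild-type contralateral and 60.9, 54.5 and 56.6 CPM in wild-type ipsilateral libraries. In DKK1 mice they were 45.1, 52.6 and 46.0 CPM contralaterally and 64.0, 70.2 and 73.7 CPM ipsilaterally. The hemispheres did not overlap in either genotype, though the gap was narrow. Stat2 rose by 0.27 ± 0.07 in wild type (edgeR adjusted p = 0.0153), a call lost without wild-type ipsilateral 1 (0.0611), wild-type contralateral 3 (0.0584) or both wild-type libraries numbered 1 (0.1005), and by 0.53 ± 0.07 in DKK1.

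Irf9, the DNA-binding partner of Stat2, measured 15.01, 21.4 and 19.7 CPM in wild-type contralateral and 32.6, 29.4 and 31.9 CPM in wild-type ipsilateral libraries. In DKK1 it measured 13.8, 17.4 and 18.9 CPM against 30.1, 39.5 and 42.0 CPM. Unlike most members, Irf9 was lowest in wild-type contralateral 1 within its group. It rose by 0.74 ± 0.16 and 1.15 ± 0.16. Irf1, the factor most directly tied to interferon-gamma through a GAS, stood at 9.87, 6.71 and 7.81 CPM against 36.4, 21.3 and 21.7 CPM in wild type, and at 6.52, 9.14 and 7.80 CPM against 32.7, 39.7 and 39.8 CPM in DKK1. It rose by 1.70 ± 0.22 and 2.25 ± 0.22. Irf7, the amplifier of type I interferon production, had the lowest intact level per length of the 4 and the largest change. Its levels of 3.68, 1.33 and 2.41 CPM in wild-type contralateral libraries compared with 18.4, 9.67 and 18.8 CPM ipsilaterally, and 3.23, 3.24 and 2.05 CPM with 23.6, 27.7 and 30.7 CPM in DKK1. Irf7 rose by 2.65 ± 0.34 and 3.27 ± 0.34, and wild-type ipsilateral 3 was as high as wild-type ipsilateral 1 for this gene.

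All 3 sensors rose. Zbp1, a sensor of Z-form nucleic acids that can trigger necroptosis, changed most in DKK1. It was nearly absent from the intact side, at 1.01, 0.0428 and 0.127 CPM in wild type, which are 27, 1 and 3 counts, and at 0.0980, 0.123 and 0.174 CPM in DKK1. Ipsilateral levels were 9.83, 2.69 and 4.53 CPM in wild type and 7.79, 9.24 and 11.2 CPM in DKK1. Zbp1 rose by 3.77 ± 0.69 in wild type, where 1 library set the intact level and the value was 5.98 without it, and by 6.09 ± 0.82 in DKK1. Ifih1 (MDA5), a sensor of long double-stranded RNA, was the highest sensor per length on the wild-type intact side and changed least of the 3. Its levels were 10.2, 5.60 and 6.84 CPM against 19.5, 12.8 and 11.6 CPM in wild type and 7.89, 6.64 and 6.63 CPM against 19.5, 23.2 and 23.9 CPM in DKK1, with changes of 0.95 ± 0.23 and 1.66 ± 0.23. Dhx58 (LGP2), which tunes such sensing, rose by 1.58 ± 0.29 and 2.09 ± 0.29.

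Ifit proteins bind foreign RNA and hinder its translation, and all 3 genes rose. Ifit2, the highest of them on the intact side per length, was among the least changed members. It measured 18.4, 12.8 and 14.7 CPM against 31.1, 22.0 and 26.4 CPM in wild type and 15.04, 16.8 and 13.0 CPM against 28.5, 28.8 and 29.9 CPM in DKK1, changes of 0.79 ± 0.15 and 0.96 ± 0.15. Its neighbours changed more, Ifit3 by 1.68 ± 0.22 and 2.20 ± 0.22 and Ifit1 by 2.14 ± 0.29 and 2.59 ± 0.29. Isg15, a ubiquitin-like protein that is attached to other proteins, was at 3.23, 2.44 and 1.56 CPM against 8.52, 4.40 and 6.13 CPM in wild type and 2.35, 2.46 and 2.53 CPM against 9.71, 10.6 and 13.2 CPM in DKK1. The intact-side libraries of DKK1 mice were close to one another, and the hemispheres did not overlap in either genotype. Isg15 rose by 1.39 ± 0.27 and 2.19 ± 0.28. Usp18, which removes Isg15 and dampens the type I receptor, rose by 2.44 ± 0.33 and 2.89 ± 0.33.

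The Oas enzymes sense double-stranded RNA and activate an RNA-degrading nuclease, and all 3 genes rose. Oas1a was among the 4 largest changes in both genotypes. It measured 0.750, 0.299 and 0.422 CPM against 9.65, 5.31 and 6.51 CPM in wild type, and 1.03, 0.861 and 0.785 CPM against 12.3, 13.6 and 15.8 CPM in DKK1. It rose by 3.83 ± 0.31 and 3.96 ± 0.29. Oas2, the lowest of the family per length in the DKK1 lesion, stood at 2.21, 1.58 and 1.56 CPM against 12.6, 11.2 and 11.4 CPM in wild type, where the ipsilateral libraries nearly coincided. In DKK1 it stood at 1.18, 1.52 and 1.26 CPM against 10.3, 17.8 and 20.4 CPM, and the changes were 2.71 ± 0.25 and 3.61 ± 0.26. Oasl2, the highest of the family per length in both intact and lesioned tissue, rose by 2.59 ± 0.38 and 3.19 ± 0.39.

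Mx1 and Mx2 belong to a family of dynamin-like antiviral GTPases. Whether their transcripts yield working protein in these mice was not tested. Mx1 had the largest change of all members in wild type. Its levels were 0.713, 0.0428 and 0.211 CPM in wild-type contralateral and 10.02, 3.01 and 5.78 CPM in wild-type ipsilateral libraries, and 0.245, 0.492 and 0.262 CPM against 6.93, 7.34 and 9.17 CPM in DKK1. Among the 12 libraries its highest value was in wild-type ipsilateral 1. Mx1 rose by 4.21 ± 0.60 in wild type, or 5.57 without wild-type contralateral 1, and by 4.51 ± 0.61 in DKK1. Mx2, its neighbour on chromosome 16, started higher per length and rose by 1.71 ± 0.23 and 2.15 ± 0.23. Parp14, an ADP-ribosyltransferase, and Parp9 with its ubiquitin ligase partner Dtx3l adjoin each other on that chromosome. They rose by 2.42 ± 0.27, 1.81 ± 0.22 and 1.11 ± 0.16 in wild type and by 3.15 ± 0.27, 2.23 ± 0.22 and 1.55 ± 0.16 in DKK1.

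Among the other 14 effectors 13 rose in each genotype. Ifitm3, a membrane protein that keeps viruses from entering cells, had the highest level per length of all members in the DKK1 lesion, at 111 ± 14.4 CPM per kilobase (SD, n = 3). Its levels were 13.1, 9.75 and 10.3 CPM against 51.1, 35.8 and 40.4 CPM in wild type and 10.2, 12.3 and 11.3 CPM against 60.7, 77.6 and 75.7 CPM in DKK1, so that the 4 groups separated by hemisphere and, on the lesioned side, by genotype. Ifitm3 rose by 1.94 ± 0.16 and 2.66 ± 0.16. Lgals3bp, a secreted glycoprotein that binds galectins, ranked next per length at 88.3 CPM per kilobase. It stood at 29.8, 14.1 and 18.1 CPM against 171, 122 and 147 CPM in wild type and 18.2, 24.6 and 19.2 CPM against 157, 208 and 216 CPM in DKK1, and it rose by 2.82 ± 0.25 and 3.23 ± 0.25.

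Ifi27l2a, a small interferon-induced membrane protein, was among the 4 largest changes in both genotypes. It measured 1.09, 0.428 and 0.591 CPM against 8.56, 4.16 and 7.34 CPM in wild type and 0.490, 0.656 and 0.567 CPM against 8.46, 9.53 and 10.7 CPM in DKK1, changes of 3.22 ± 0.33 and 4.05 ± 0.35. Ifi44 was the lowest effector per length on both sides, and in the DKK1 lesion its 3 libraries lay between 4.87 and 5.29 CPM. Xaf1, a partner of an apoptosis inhibitor, was among the 4 smallest changes of the members that rose in DKK1. It measured 5.82, 4.70 and 5.36 CPM against 15.5, 8.20 and 8.94 CPM in wild type and 4.95, 6.19 and 5.32 CPM against 11.4, 12.5 and 14.3 CPM in DKK1, changes of 1.04 ± 0.22 and 1.21 ± 0.22. The remaining effectors rose by 1.02 (Samhd1, which breaks down DNA building blocks) to 2.72 (Trim30a) in wild type and by 1.63 (Samhd1) to 3.41 (Ifi44) in DKK1.

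Cmpk2, a mitochondrial nucleotide kinase, was the one member not called in either genotype. It measured 32.3, 30.5 and 31.5 CPM in wild-type contralateral, 30.3, 31.0 and 30.3 CPM in wild-type ipsilateral, 30.8, 31.4 and 30.0 CPM in DKK1 contralateral and 30.6, 26.0 and 26.5 CPM in DKK1 ipsilateral libraries. The groups overlapped in wild type and in DKK1. Its changes were −0.04 ± 0.07 (edgeR adjusted p = 0.635) and −0.15 ± 0.07 (0.0824). In DKK1 it passed as lower with upper-quartile scaling (−0.19, adjusted p = 0.0329) and without DKK1 ipsilateral 1 (−0.23, 0.00798). Rsad2 (viperin), an antiviral enzyme that makes a chain-terminating nucleotide, starts 12.8 kb from Cmpk2. Its levels were 2.81, 1.97 and 0.887 CPM against 9.83, 5.94 and 6.13 CPM in wild type and 1.42, 2.05 and 1.53 CPM against 7.79, 13.1 and 12.2 CPM in DKK1, and it rose by 1.94 ± 0.36 and 2.72 ± 0.37.

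The 10 GTPases belong to families that act on the membranes around intracellular microbes, some members as regulators. Irgm1, a regulator of the other immunity-related GTPases, was the highest per length on both sides, at 19.5 ± 3.16 CPM per kilobase in the DKK1 lesion (SD, n = 3). It measured 15.8, 12.4 and 11.9 CPM against 40.2, 29.6 and 28.8 CPM in wild type and 12.3, 13.7 and 11.5 CPM against 36.8, 50.9 and 46.8 CPM in DKK1. Irgm1 rose by 1.30 ± 0.16 and 1.84 ± 0.17. Tgtp1 was the lowest per length, at 1.82 ± 0.43 CPM per kilobase in the DKK1 lesion. Its levels of 1.20, 0.214 and 0.718 CPM compared with 4.67, 2.14 and 1.22 CPM in wild type, where the highest intact library nearly reached the lowest lesioned one. In DKK1 they were 0.735, 0.820 and 0.392 CPM against 3.88, 6.27 and 5.14 CPM. Tgtp1 rose by 1.89 ± 0.56 in wild type (edgeR adjusted p = 0.0215) and by 2.96 ± 0.57 in DKK1. The wild-type call was lost without wild-type ipsilateral 1 (0.109), wild-type contralateral 2 (0.0688) or wild-type contralateral 3 (0.0588).

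Gbp2, which coats vacuoles and bacteria, measured 4.73, 2.01 and 2.70 CPM against 31.2, 14.4 and 10.4 CPM in wild type and 3.63, 3.89 and 2.66 CPM against 26.2, 29.8 and 30.4 CPM in DKK1. The wild-type lesions spanned a wide range while the DKK1 lesions lay close together. Gbp2 rose by 2.56 ± 0.40 and 3.08 ± 0.40. Within the Gbp cluster the changes in wild type ran from 1.08 (Gbp7) to 2.56 (Gbp2), and Gbp3 (1.63 ± 0.43) lost its call without wild-type ipsilateral 1 (edgeR adjusted p = 0.0602). Ifi47 had the largest change among the GTPases, 3.01 ± 0.46 and 3.66 ± 0.46, and Igtp the smallest in wild type, 1.06 ± 0.22. Iigp1, which loads onto parasite vacuoles, stood at 4.24, 0.770 and 1.18 CPM against 19.0, 8.32 and 5.90 CPM in wild type and 1.62, 1.43 and 1.48 CPM against 12.8, 17.5 and 16.3 CPM in DKK1. Wild-type contralateral 1 stood well above the other 5 contralateral libraries for this gene, which rose by 2.40 ± 0.55 and 3.36 ± 0.58.

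Set side by side, the classes had similar scores in most ipsilateral libraries. A score per library, the mean log2 CPM of a class relative to the wild-type contralateral mean, was 2.48, 1.71 and 1.41 for the GTPases and 2.39, 1.62 and 1.90 for the type I style genes in wild-type ipsilateral libraries 1 to 3. In DKK1 ipsilateral libraries it was 2.28, 2.59 and 2.55 for the GTPases and 2.28, 2.61 and 2.68 for the type I style genes. The type I score minus the GTPase score lay between −0.09 and 0.13 in 5 of these 6 libraries. The other was wild-type ipsilateral 3, at 0.49, where the type I style genes were higher relative to the GTPases. On the intact side wild-type contralateral 1 was the opposite, at 0.76 for the GTPases and 0.46 for the type I style genes. Over the contralateral libraries the type I score minus the GTPase score ran from −0.31 in wild-type contralateral 1 to 0.18 in wild-type contralateral 2. Members with an ISRE match had a median lesion change of 1.68 in wild type and 2.26 in DKK1 (18 genes). Those without one had 1.65 and 2.17 (14 genes). With a GAS match the medians were 1.66 and 2.09 (11 genes), and without one 1.68 and 2.28 (21 genes). The 12 members that had no window are missing from both comparisons, and their medians were higher, at 2.43 and 3.25.

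**Figure D4:**
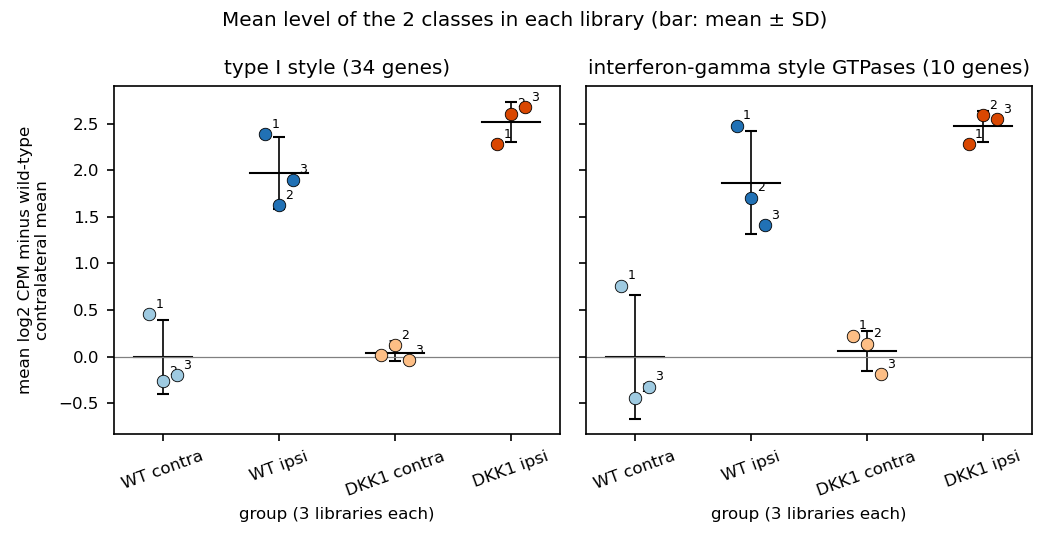
Mean log2 CPM of the type I style genes (left) and the GTPases (right) in each library, relative to the wild-type contralateral mean, with the replicate number beside each point and bars for the mean and SD. Both panels show wild-type ipsilateral 1 at the level of the DKK1 ipsilateral libraries and wild-type contralateral 1 above the other contralateral libraries.

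Genotype was compared on the lesioned side, and this comparison shares its libraries with the lesion comparisons above. With all libraries 1 of 44 members was higher in DKK1, where 1.52% of all genes were, and none was lower. That member was Ifitm3, with 60.7, 77.6 and 75.7 CPM in DKK1 and 51.1, 35.8 and 40.4 CPM in wild-type ipsilateral libraries, a difference of 0.75 ± 0.15 (edgeR adjusted p = 0.0270). At an unadjusted p under 0.05 there were 17 members, where 20.9% of all genes were. The log2 difference was above 0 in 43 of 44, Cmpk2 being the exception, where it was above 0 in 54.5% of all genes, with a median of 0.51 over the members and 0.02 over all genes. All DKK1 libraries lay above all wild-type libraries in 9 of 44, where 13.3% of all genes did so. These 9 were Ifitm3, Gbp5, Irf7, Stat2, Ifih1, Ifit3, Isg15, Oas1a and Ifi44. By size the largest difference was that of Oas1a, 0.96 ± 0.24 (edgeR adjusted p = 0.0572).

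The difference depended on which libraries stood for the wild-type lesion. Wild-type ipsilateral 2 lay below every DKK1 ipsilateral library in 42 of 44 members and wild-type ipsilateral 3 in 41, where 38.2% and 37.1% of all genes did. Wild-type ipsilateral 1 did so in 9 (20.5%), where 29.5% of all genes did. It lay above every DKK1 ipsilateral library in 7 (15.9%), fewer than the 23.3% of all genes. These 7 were Gbp2, Gbp3, Iigp1, Ifit2, Mx1, Xaf1 and Slfn5. Without wild-type ipsilateral 1, 21 of 44 members were higher in DKK1, where 10.1% of all genes were, with a median of 0.84. Of these 21, 4 were GTPases (Gbp2, Irgm1, Irgm2 and Tgtp1) and 17 type I style genes. With both wild-type libraries numbered 1 left out, a setting chosen after the data were seen, the count was 35 with 12.8% of all genes, and all 10 GTPases were among them. Without wild-type ipsilateral 2 or 3, DKK1 contralateral 3, or DKK1 ipsilateral 2 or 3 it was 0, since Ifitm3 then had an adjusted p of 0.102, 0.133, 0.0505, 0.117 and 0.109. Without DKK1 ipsilateral 1 it was 6, and without wild-type contralateral 1 it was 2. The share of all genes called is not given for these settings, so the counts are not read as a result about the members.

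**Figure D5:**
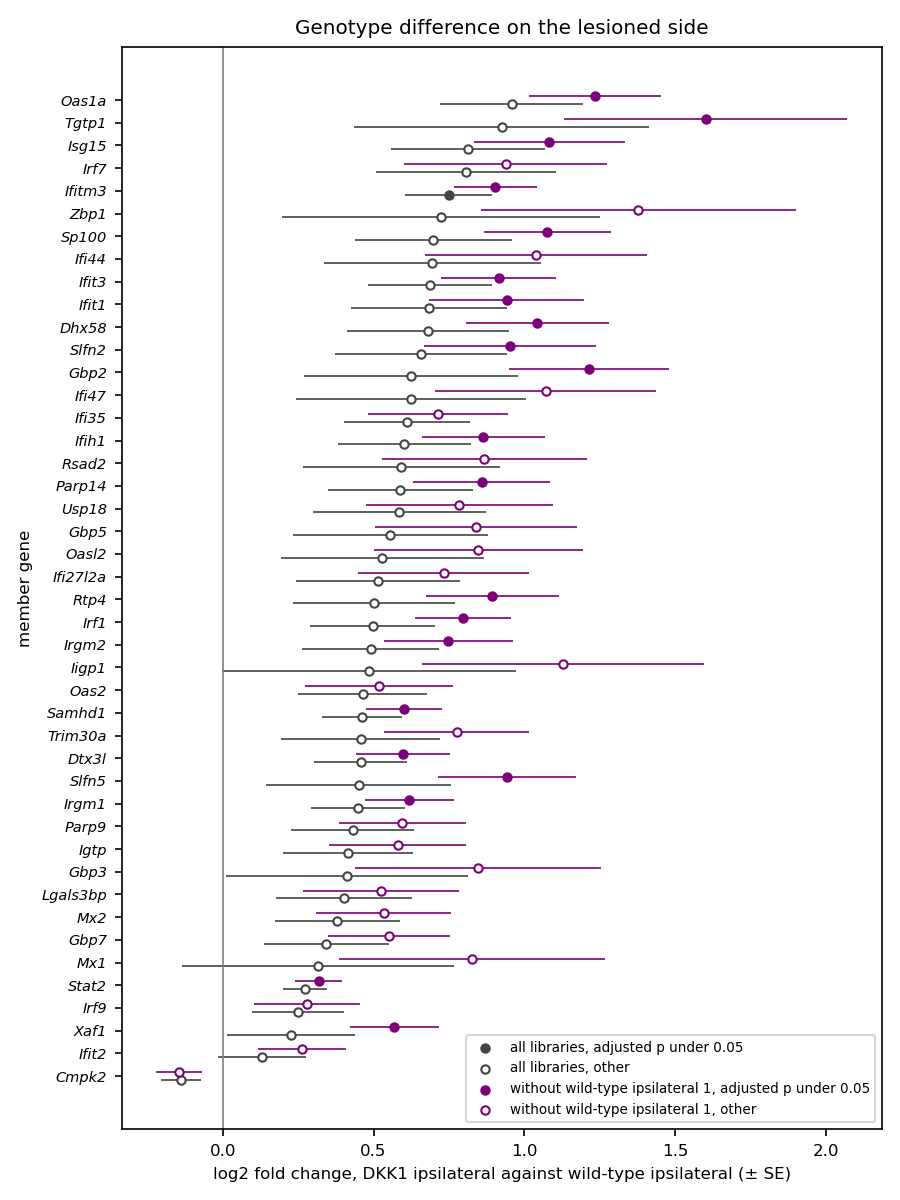
Log2 difference of each member between DKK1 and wild-type ipsilateral libraries, with standard errors, for all libraries (grey) and without wild-type ipsilateral 1 (purple), filled where the adjusted p is under 0.05. One grey point is filled, Ifitm3 at 0.75, and 21 purple points are.

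Other tools called more members on all libraries. DESeq2 called 5 (Ifit3, Ifitm3, Oas1a, Samhd1 and Stat2) where it called 4.10% of all genes, and limma-voom called 3 (Ifit3, Ifitm3 and Oas1a) with 2.75% of all genes. Same-numbered libraries of a genotype deviated together, so fits with the replicate number as a block were also made. With the number as an additive term shared by both genotypes, edgeR called 3 (Ifit3, Ifitm3 and Oas1a) and 1.80% of all genes. With the number within genotype as a random effect, limma-voom called 4 (these and Irf7) and 2.70% of all genes. The labels do not say that equal numbers of the 2 genotypes belong together. Fitted on the ipsilateral libraries alone, edgeR called 0 (Ifitm3 adjusted p = 0.148). Among pathway genes outside the member list only the chemokine Cxcl11 was higher in DKK1, at 41, 25 and 24 counts against 9, 0 and 4 in wild type (2.79 ± 0.63, edgeR adjusted p = 0.0441). None of the 6 receptors, 7 regulators or 10 sensors and adaptors passed.

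Markers of several other cell types also rose in the lesion, while those of neurons fell. Microglia and macrophage markers (8 of 8 tested, of which 7 rose in wild type and 8 in DKK1) summed to 283, 176 and 180 CPM in wild-type contralateral, 892, 519 and 617 CPM in wild-type ipsilateral and 850, 849 and 929 CPM in DKK1 ipsilateral libraries. Wild-type ipsilateral 1 again stood with the DKK1 lesions. T and NK cell markers (9 of 9 tested rose in each genotype) summed to 0.392 to 1.39 CPM in contralateral libraries, where up to 6 of 11 were at 0, Ncr1 in 5 of these libraries and Cd3g in 3. They summed to 23.0, 15.1 and 10.7 CPM in wild-type ipsilateral and 26.98, 35.4 and 34.2 CPM in DKK1 ipsilateral libraries. B cell markers (5 of 5 rose in each genotype) summed to 33.0, 30.5 and 40.5 CPM in wild-type ipsilateral libraries. In DKK1 ipsilateral libraries they summed to 69.0, 70.2 and 123 CPM, all above wild-type ipsilateral 1. Their contralateral sums were 0.305 to 1.69 CPM, where Ms4a1 was at 0 in 3 libraries and Pax5 in 1. In the genotype comparison 1 of 9 T and NK cell markers (Cd8b1), 2 of 5 B cell markers (Ms4a1 and Pax5) and 0 of 8 microglia markers were higher in DKK1.

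Border macrophage and monocyte markers (3 of 5 rose in each genotype) summed to 8.50 to 10.7 CPM contralaterally, with Ly6c2 at 0 in 2 libraries, to 43.7, 19.97 and 21.1 CPM in wild-type ipsilateral and to 38.6 to 44.3 CPM in DKK1 ipsilateral libraries. Meningeal fibroblast markers (4 of 4 rose in each) summed to 38.3 to 94.0 CPM contralaterally, 681, 285 and 269 CPM in wild-type ipsilateral and 510, 702 and 656 CPM in DKK1 ipsilateral libraries. Neutrophil markers (2 of 5 tested, both of which rose in each genotype) summed to 0.490 to 2.09 CPM contralaterally and 3.33 to 8.11 CPM ipsilaterally, with the defining Ly6g at 0 in 10 of 12 libraries. Endothelial markers (2 of 5 rose in wild type and 3 in DKK1) summed to 181 to 242 CPM contralaterally. They summed to 233 to 263 CPM in wild-type ipsilateral and 289 to 312 CPM in DKK1 ipsilateral libraries. In the genotype comparison on the lesioned side 1 of 5, Pecam1, was higher in DKK1. Neuron markers fell in the lesion (5 of 6 in wild type and 6 of 6 in DKK1), and oligodendrocyte markers rose (4 of 4 in each). Of 5 astrocyte markers 3 rose in each genotype, and 1 fell in DKK1. The part of these cell types in the changes of the members was not tested.

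On the intact side 0 of 44 members differed between genotypes by edgeR, where 0.880% of all genes did. The count was 0 by DESeq2 and limma-voom too, and 1 member had an unadjusted p under 0.05, where 6.08% of all genes did. The median log2 difference was −0.02, and 0.28 without wild-type contralateral 1. The 3 members with the smallest p were Oas1a (0.83 ± 0.37, edgeR adjusted p = 0.782), Oas2 (−0.44 ± 0.28) and Zbp1 (−1.60 ± 1.10). For Oas1a all DKK1 contralateral libraries (0.785 to 1.03 CPM) lay above all wild-type ones (0.299 to 0.750 CPM). For Oas2 all DKK1 libraries (1.18 to 1.52 CPM) lay below them (1.56 to 2.21 CPM). The same held for Samhd1 (24.4 to 27.5 against 27.8 to 30.5 CPM). All DKK1 libraries thus lay above all wild-type ones in 1 of 44 members, and in 1028 of all 17612 genes tested. They lay below in 2 of 44 members, and in 1069 of 17612 genes. Zbp1 reversed without wild-type contralateral 1, to 0.61.

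The interaction asks whether the lesion change itself differed between genotypes. By edgeR 0 of 44 members passed, where 0.00568% of all genes did, and the counts by DESeq2 and limma-voom were 0 too. An unadjusted p under 0.05 was found for 5 of 44 members, a share of 11.4%, close to the 9.59% of all genes. The 3 members with the smallest p were Ifitm3 (0.72 ± 0.22, edgeR adjusted p = 0.435), Samhd1 (0.61 ± 0.19, 0.435) and Stat2 (0.27 ± 0.10, 0.483). The median over the members was 0.54 and 43 of 44 values were above 0, where 53.4% of all genes were. This comparison shares its ipsilateral libraries with the genotype comparison above. With the replicate number within genotype as a fixed block edgeR called 2 members, Ifitm3 (0.72, adjusted p = 0.00783) and Parp14 (0.71, 0.0420), where it called 1.64% of all genes. Without wild-type ipsilateral 1 Ifitm3 was called (0.87, 0.0447), and the median was 0.80, against 0.23 without wild-type contralateral 1 and 0.52 without both.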

How the data were processed

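RNA from the lesioned and intact hemispheres of wild-type and DKK1 mice was sequenced as 12 libraries in 4 groups of 3, with groups and replicate numbers taken from the labels. Per the labels' protocols, libraries were made with a directional mRNA kit. STAR 2.7.0f, HOMER 4.11, DESeq2 and the build mm10 are named in the submitters' processing notes, without roles or settings. The authors deposited raw counts per RefSeq transcript, 1 for each of 25124 genes, and a TPM table of the same libraries. The deposited TPM table held the same transcript for 30 members, in a ratio to the counts that was constant within 0.0103%.

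The members and all gene lists were chosen with earlier results of these data known. All 44 members are accounted for, and those given in full are the members called, or where more than 12 were called the 4 largest and 4 smallest changes and the extremes of each role by level. Where none was called, the 3 with the smallest p are given. A few pathway and marker genes are not reported here.

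In edgeR 4.0.16 (R 4.3.3), genes were kept by filterByExpr (minimum count 10), which left 17612. All 12 libraries were scaled by TMM and fitted in 1 robust quasi-likelihood model with 4 groups. All tests were two-sided, and a gene was called at a Benjamini-Hochberg adjusted p below 0.05, adjusted over the whole table of tested genes. The script was tested on simulated data. Scores use log2 CPM with a prior count of 2.

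Within wild type, the deviations of the 3 same-numbered pairs from their group means correlated across genes at 0.487, 0.310 and 0.297. The DKK1 pairs gave 0.276, 0.125 and 0.105. Differently numbered libraries were not correlated for comparison, and the labels do not say what a number marks. The main fit therefore has no block, and fits with the replicate number as a block were made beside it. Alternatives were DESeq2 1.42.0, limma 3.58.1 (voom, and log2 of TPM plus 0.5 or 0.1), upper-quartile scaling, no filter, only the groups compared, and each library left out. Intervals for counts of 0 cover counting error only.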

Additional observations from a re-analysis of the deposited data

How the results depend on the processing

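The lesion results kept their direction for all members but Cmpk2. Every alternative that gave a value left 40 to 43 members higher in the wild-type lesion and 43 in the DKK1 lesion, and the single-gene values of the lesion effect in DKK1 kept their side of the threshold in 922 cases and changed it in 2. Those were Cmpk2 as lower, 1 member, with upper-quartile scaling and without DKK1 ipsilateral 1, so that leaving out 1 library gave 0 to 1 lower. In wild type 9 single-gene calls were lost, for Gbp3, Tgtp1 and Stat2, the first 2 also when only the groups compared were fitted (adjusted p = 0.0537 and 0.0705), which leaves fewer libraries to estimate the spread. Leaving out 1 library moved the wild-type median between 1.53 and 2.15. Cmpk2 changed sign in wild type on log2 of TPM plus 0.5 (0.0047) and plus 0.1 (0.0048).

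The genotype result on the lesioned side was not stable. The count of 1 higher member became 5 with DESeq2, 3 with limma-voom, 4 and 3 with the replicate number as a random and an additive block, 0 with only the groups compared, 35 with both wild-type libraries numbered 1 left out (median 0.84), and 0 to 21 with 1 library left out (median 0.40 to 0.84). Mx1 changed sign without wild-type ipsilateral 2, within a range of −0.016 to 0.83 with 1 library left out. The fixed replicate block moved the interaction from 0 to 2 members, and leaving out 1 library gave 0 to 1. The blocks changed no call of the lesion effects or of the intact-side genotype effect. Zbp1 on the intact side changed sign on log2 of TPM plus 0.1 (0.42), without wild-type contralateral 1 (0.61, in a range of −2.10 to 0.61 with 1 library left out) and with both wild-type libraries numbered 1 left out (0.61). The cause of these shifts was not tested. With 3 libraries per group, members with a few counts on the intact side, such as Zbp1 and Mx1, have wide errors there.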
